A study of Homo sapiens with 6 samples.

Results

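The genes described here make prostaglandin E2, break it down or sense it in MDA-MB-231, a triple-negative breast cancer cell line. They were taken by symbol from the deposited table of reads and are 9 of its 29710 genes: PLA2G4A, PTGS1, PTGS2, PTGES, PTGES2, PTGES3, HPGD, PTGER2 and PTGER4. The study compared MDA-MB-231 cells overexpressing SRPK2-FLAG, a tagged form of a kinase that phosphorylates splicing factors, with MDA-MB-231 cells carrying an empty vector, with 3 biological replicates of each. Both groups are 1 cell line, and how the construct was delivered and for how long is not given in the sources used here. SRPK2 itself stood at 213, 248 and 294 CPM (reads scaled to library size) in SRPK2 replicates 1 to 3, against 37.8, 36.7 and 41.1 CPM in the empty-vector replicates 1 to 3.

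Prostaglandin E2 is made from arachidonic acid, which cytosolic phospholipase A2 (PLA2G4A) cuts from membrane lipids. The cyclooxygenases, constitutive PTGS1 and inducible PTGS2 (COX-1 and COX-2), turn it into prostaglandin H2, and the synthases PTGES, PTGES2 and PTGES3 form prostaglandin E2. HPGD inactivates the product, and the receptors EP2 (PTGER2) and EP4 (PTGER4) raise cyclic AMP in cells that bind it. In breast cancer, PTGS2 is studied as a gene of inflammation, invasion and metastasis, and in many cells its mRNA is induced by inflammatory cytokines and short-lived.

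PTGS2 was lower in cells with SRPK2, and it is the gene for which the set was proposed. PTGER4 was higher by a smaller amount that did not pass the test, and PTGES2 and PTGES3 were slightly lower. PTGES, PLA2G4A, HPGD, PTGER2 and PTGS1 had overlapping groups. In the test across all genes, PTGS2 fell and the other 8 members did not pass an adjusted p of 0.05. All 9 members had enough reads to be tested. Over the 16515 tested genes, 0.454% passed in either direction, 0.381% as higher and 0.0727% as lower. The 9 genes were proposed with results of this contrast known, so their values are a description and nothing is read from the member count.

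The promoters of both cyclooxygenase genes and of PTGES are shown because they set the inducible isoenzyme beside the constitutive one and beside the synthase that is often induced with PTGS2. They are the 250 bases before the RefSeq transcript start (GRCh38.p14), 5′ to 3′ on the gene's own strand, with matches to 5 motifs in capitals. PTGS2 lies at chr1:186680424-186680673 (minus strand), PTGS1 upstream of its first listed start at chr9:122370283-122370532 (plus strand) and PTGES at chr9:129753043-129753292 (minus strand).
PTGS2: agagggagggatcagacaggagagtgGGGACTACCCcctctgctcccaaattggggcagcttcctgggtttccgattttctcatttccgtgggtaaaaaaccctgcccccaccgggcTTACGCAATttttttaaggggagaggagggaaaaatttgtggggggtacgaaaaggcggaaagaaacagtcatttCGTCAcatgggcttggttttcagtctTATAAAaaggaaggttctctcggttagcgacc
PTGS1: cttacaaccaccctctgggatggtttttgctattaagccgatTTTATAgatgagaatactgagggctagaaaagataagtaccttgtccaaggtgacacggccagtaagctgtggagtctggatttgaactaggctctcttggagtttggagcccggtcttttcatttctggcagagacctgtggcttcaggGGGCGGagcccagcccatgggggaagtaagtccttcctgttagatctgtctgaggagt
PTGES: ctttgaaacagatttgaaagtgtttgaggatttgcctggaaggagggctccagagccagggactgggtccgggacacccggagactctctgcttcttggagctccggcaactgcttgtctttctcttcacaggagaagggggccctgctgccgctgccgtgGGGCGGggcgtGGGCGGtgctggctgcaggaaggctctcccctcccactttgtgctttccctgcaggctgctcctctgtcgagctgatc

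The motifs were searched on both strands as letters. They were TATAAA for the TATA box, TTNNGCAAT for C/EBP factors, the NF-kB motif (3 G, any 2 bases, T, any 2 bases, then 2 C), TGACG for the core of the cyclic AMP response element (CRE) and GGGCGG for the GC box of Sp1-type factors. Counting base -1 as the last before the start, the PTGS2 window held GGGACTACCC for NF-kB from -224 to -215, TTACGCAAT for C/EBP from -133 to -125, the CRE core on the other strand from -58 to -54 and TATAAA from -32 to -27. It held no GC box in those letters. The PTGS1 window held the TATA letters on the other strand, from -208 to -203, and 1 GC box, and the PTGES window held 2 GC boxes. None of these matches overlapped another.

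All 9 members matched an entry, with 13 starts between them. The C/EBP letters were in 1 of the 13 windows, that of PTGS2, and in 2.04% of the 35116 windows of the same length in the RefSeq table. The TATA letters were in 2 of the 13 and in 10.7% of all windows, the NF-kB letters in 3 and in 19.7%, the CRE core in 4 and in 21.2%, and the GC box in 10 and in 42.6%. PTGER4 held the NF-kB letters as GGGGCTTCCC from -244 to -235, together with 4 GC boxes. The GC content was 50.4% in the PTGS2 window and 72.8% in the PTGER4 window, against a median of 58.0% over all windows. A match is a string of letters and was not tested as a binding site.

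**Figure D1:**
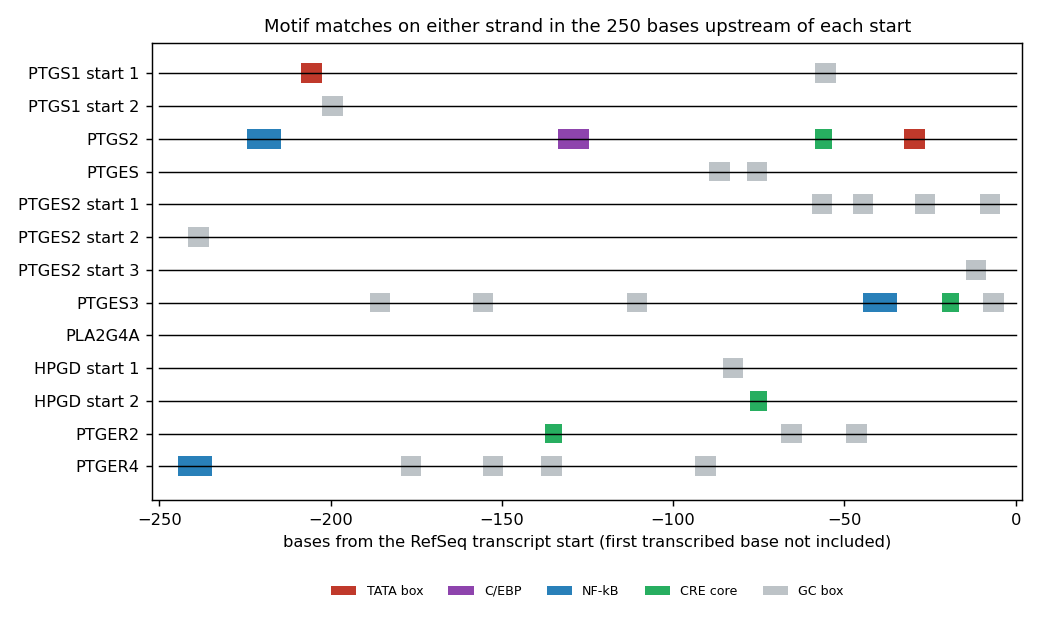
Motif matches in the 250 bases before each RefSeq start of the 9 genes. The x axis gives bases from the start, each row is 1 start, and boxes are matches on either strand, coloured by motif. PTGS2 carries 4 kinds of match and no GC box, while 10 of the 13 windows hold a GC box and PLA2G4A holds no match.

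PLA2G4A, which releases arachidonic acid, had 4.76, 5.89 and 5.40 CPM in SRPK2 replicates 1 to 3, against 5.92, 5.54 and 4.89 CPM in the empty-vector replicates. The groups overlapped over most of their range. On the log2 scale the difference, SRPK2 over empty vector, was -0.02 (SE 0.11, edgeR), and this log2 fold change is used throughout. Its direction depended on the setting, with values between -0.10 and 0.05. PLA2G4A lies on chromosome 1 from 186828953 to 186988981 on the plus strand (GRCh38, GENCODE 29), and its RefSeq start is 148526 bases from that of PTGS2, which is transcribed the other way. These 2 genes of consecutive steps thus stand in one region of chromosome 1, with a log2 fold change of -0.02 for one and -0.41 for the other.

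PTGS2, the inducible cyclooxygenase (ENSG00000073756.13, chromosome 1 from 186671791 to 186680427, minus strand), had 398, 450 and 506 reads in SRPK2 replicates 1 to 3 and 619, 510 and 664 reads in the empty-vector replicates. Scaled to library size these were 12.7, 12.9 and 13.2 CPM with SRPK2, against 17.6, 15.7 and 18.1 CPM with the empty vector. All 3 SRPK2 libraries lay below all 3 empty-vector libraries. The means were 12.9 ± 0.25 CPM in SRPK2 cells and 17.2 ± 1.28 CPM in empty-vector cells (SD, n = 3 each). PTGS2 fell by 0.41 on the log2 scale (SE 0.07), which is 24.7% less. In bulk RNA, fewer cells with the transcript and less of it per cell cannot be told apart.

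The spread of PTGS2 differed between the groups. Its coefficient of variation was 1.94% in the SRPK2 libraries, where counting error at this depth gives 4.71% on average, and 7.46% in the empty-vector libraries, where counting error gives 4.09%. The 3 SRPK2 values were thus closer together than counting error would place them on average. Empty-vector replicate 2, at 15.7 CPM, was the nearest to the SRPK2 libraries. Without that library the log2 fold change was -0.47 (SRPK2 over empty vector), and it was between -0.43 and -0.37 when any other single library was left out.

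The call of PTGS2 rested on most of the libraries. PTGS2 missed the threshold without SRPK2 replicate 1 or 3 (log2 fold change -0.40 and -0.43) and without empty-vector replicate 1 or 3 (-0.39 and -0.37), with edgeR adjusted p between 0.0561 and 0.184. It also missed it with libraries scaled by size alone (-0.37, edgeR adjusted p = 0.0545) and in the deposited FPKM values (-0.26 on the log2(FPKM + 1) scale, limma adjusted p = 0.154). That scale understates the change of low genes, but with a pseudocount of 0.1 the value was -0.36 and the threshold was missed as well (limma adjusted p = 0.151). In FPKM, which scales reads to gene length and library size, PTGS2 had 2.11, 2.13 and 2.26 in SRPK2 libraries, against 2.87, 2.53 and 3.02 in empty-vector libraries, again without overlap.

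Fibroblasts and monocytes are other cells that can make PTGS2. The summed CPM of 6 fibroblast markers was 12.04 to 13.09 in SRPK2 libraries and 9.26 to 10.1 in empty-vector libraries, and 0 of the 6 passed the edgeR threshold. LUM, COL1A1 and PDGFRB were higher in every SRPK2 library than in any empty-vector library, as were 11.5% of all tested genes. COL1A2 and DCN overlapped, and PDGFRA was lower on average with SRPK2 (0.031 CPM, against 0.088 CPM with the empty vector). DCN (mean 0.36 CPM with SRPK2 and 0.35 CPM with the empty vector) and PDGFRA (at most 4 reads in a library) were close to 0. The 5 leukocyte markers analysed summed to 8.53 to 9.92 CPM with SRPK2 and 9.45 to 10.5 CPM with the empty vector, most of it CD14 and CSF1R, with PTPRC at 0.19 CPM with SRPK2 and 0.17 CPM with the empty vector. The part of either in the PTGS2 result was not tested. Of the markers of the line, VIM stood at 609 and 626 FPKM and CD44 at 97.1 and 95.5 FPKM in SRPK2 and empty-vector cells. ESR1 and PGR had at most 4 reads in a library. ERBB2 was expressed, at 51.4 CPM with SRPK2 and 47.1 CPM with the empty vector, without overlap (edgeR adjusted p = 0.234). The epithelial markers EPCAM (14.4 and 14.7 CPM) and CDH1 (2.63 and 2.61 CPM) were present in both groups and overlapped.

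PACERR, a noncoding RNA transcribed away from PTGS2 on the other strand, starts 231 bases upstream of the PTGS2 start in RefSeq, so its own window covers most of the PTGS2 promoter. It had 15, 9 and 11 reads in SRPK2 libraries and 4, 10 and 12 reads in empty-vector libraries. At this depth its log2 fold change of 0.42 (SE 0.42) could not be told from 0 (edgeR adjusted p = 0.620). GENCODE 29 places no other gene within 10 kb of PTGS2, and PACERR shares no exon with it.

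PTGS1, the constitutive cyclooxygenase, had 40, 46 and 83 reads in SRPK2 libraries and 56, 52 and 46 reads in empty-vector libraries. In CPM these were 1.28, 1.32 and 2.17 with SRPK2, against 1.59, 1.60 and 1.26 with the empty vector. SRPK2 replicate 3 stood above the other 5 libraries, which lay within 1.26 to 1.60 CPM. Its log2 fold change of 0.12 (SE 0.22) was -0.19 without SRPK2 replicate 3. Per kilobase, PTGS2 exceeded PTGS1 in every library, by 10.55, 10.1 and 6.46 times with SRPK2 and by 11.5, 10.5 and 15.1 times with the empty vector (ratio of FPKM values). PTGS2 thus made up most of the cyclooxygenase mRNA in both groups.

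**Figure D2:**
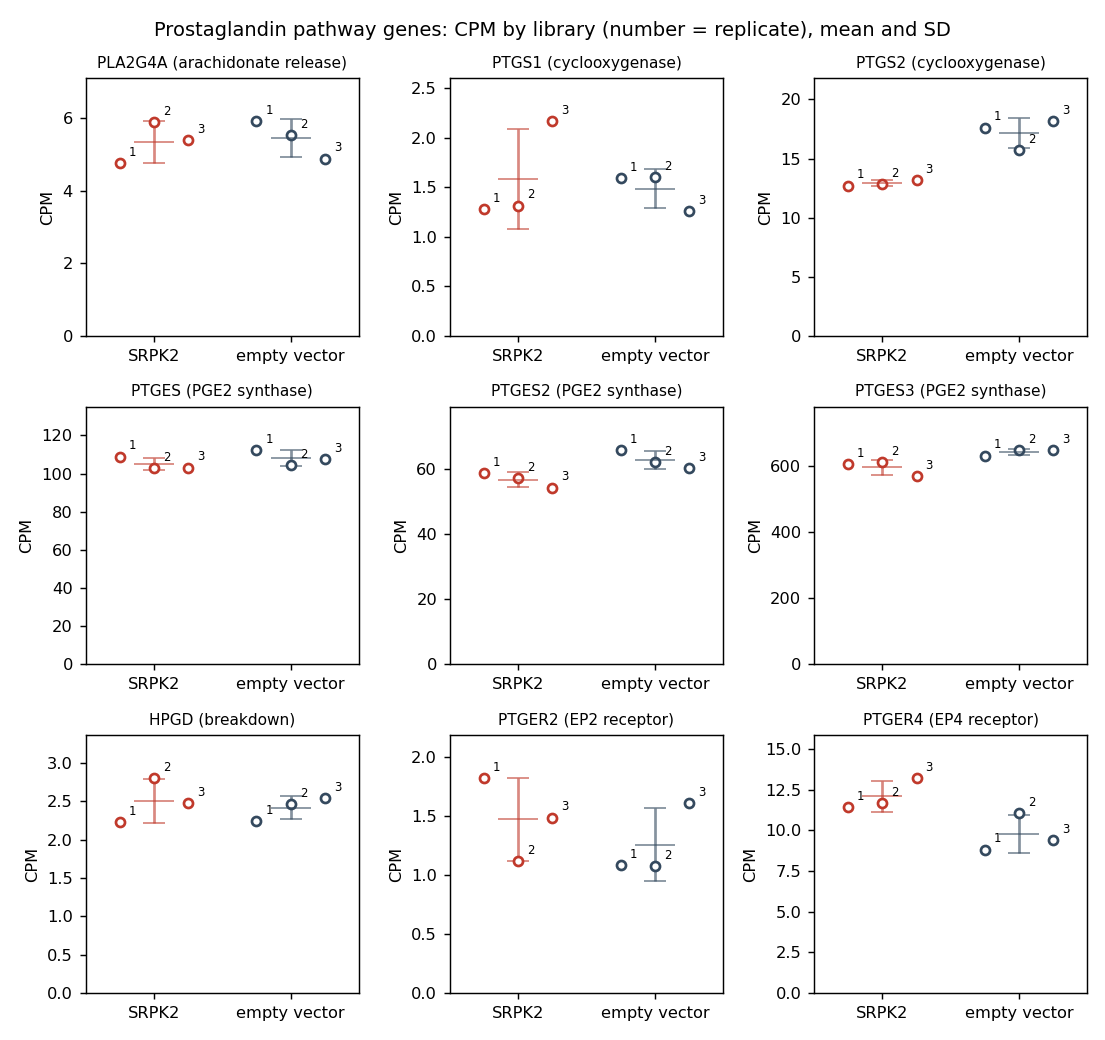
CPM of the 9 genes in each library. SRPK2 libraries stand on the left (red) and empty-vector libraries on the right (dark), numbers are replicates, the long bar is the mean and the whiskers are 1 SD (n = 3 each), and each y axis starts at 0. The groups are apart for PTGS2 (12.7 to 13.2 against 15.7 to 18.1 CPM), PTGES2, PTGES3 and PTGER4, and overlap for the other 5.

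PTGES, the membrane-bound synthase that is induced in inflammation, had 109, 103 and 103 CPM in SRPK2 libraries, against 112, 105 and 108 CPM in empty-vector libraries. The groups overlapped. PTGES had a log2 fold change of -0.04 (SE 0.05), or 0.00 after correction for gene length. The gene occupies chromosome 9 from 129738331 to 129753047, minus strand. It was thus close to level between the groups while PTGS2 fell, and the ratio of PTGES to PTGS2 in FPKM was 24.9, 23.2 and 22.7 with SRPK2, against 18.5, 19.3 and 17.2 with the empty vector.

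PTGES2, a second membrane-associated synthase, had 58.6, 57.2 and 54.3 CPM with SRPK2, against 65.8, 62.1 and 60.2 CPM with the empty vector. The groups did not overlap, but lay close together. Its log2 fold change was -0.15 (SE 0.06). The divergent neighbour PTGES2-AS1, on the other strand 66 bases away, had 3 to 9 reads per library, too few for a test. PTGES2 and PTGES3 lie on chromosome 9 from 128120693 to 128128462 and on chromosome 12 from 56663341 to 56688408, both on the minus strand.

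PTGES3, a cytosolic synthase that is also p23, a co-chaperone of the heat shock protein HSP90, had 604, 611 and 570 CPM with SRPK2, against 631, 648 and 647 CPM with the empty vector. The groups did not overlap. PTGES3 differed by -0.11 on the log2 scale (SE 0.05), within the range of -0.13 to -0.07 over the settings tried. The processed pseudogene PTGES3P1 had 24 to 34 reads in SRPK2 libraries and 25 to 32 in empty-vector libraries, beside 18921 to 23663 reads for PTGES3 over all 6, so reads assigned there would shift PTGES3 little.

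HPGD, the dehydrogenase that inactivates prostaglandins, had 2.24, 2.80 and 2.48 CPM with SRPK2, against 2.25, 2.46 and 2.54 CPM with the empty vector. The groups overlapped almost fully. The log2 fold change was 0.05 (SE 0.14), from 70 to 98 reads per library. The gene occupies chromosome 4 from 174490177 to 174523154, minus strand.

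PTGER4, the EP4 receptor, had 358, 408 and 506 reads in SRPK2 libraries and 310, 359 and 344 reads in empty-vector libraries. In CPM these were 11.4, 11.7 and 13.2 with SRPK2, against 8.82, 11.1 and 9.40 with the empty vector. The SRPK2 libraries lay above the empty-vector libraries, with empty-vector replicate 2 close to SRPK2 replicate 1. Its log2 fold change of 0.32 (SE 0.10) stayed between 0.24 and 0.41 when 1 library was left out. PTGER4 lies on chromosome 5 from 40679498 to 40693735 on the plus strand, inside the span of TTC33, which runs on the other strand and shares no exon with it. TTC33 itself differed by 0.02 on the log2 scale (SE 0.06).

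PTGER2, the EP2 receptor, on chromosome 14 from 52314305 to 52328606 on the plus strand, had 1.82, 1.12 and 1.49 CPM with SRPK2, against 1.08, 1.08 and 1.61 CPM with the empty vector. The groups overlapped, on 35 to 59 reads per library. PTGER2 differed by 0.21 on the log2 scale (SE 0.23), and leaving out 1 library moved this between 0.04 and 0.44. The other E-type receptor genes had at most 1 read (PTGER1) and 6 reads (PTGER3) in a library. EP4 was thus the receptor gene with the highest level, at 4.39, 7.27 and 6.14 times PTGER2 in FPKM with SRPK2 and at 5.69, 7.05 and 4.03 times with the empty vector.

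**Figure D3:**
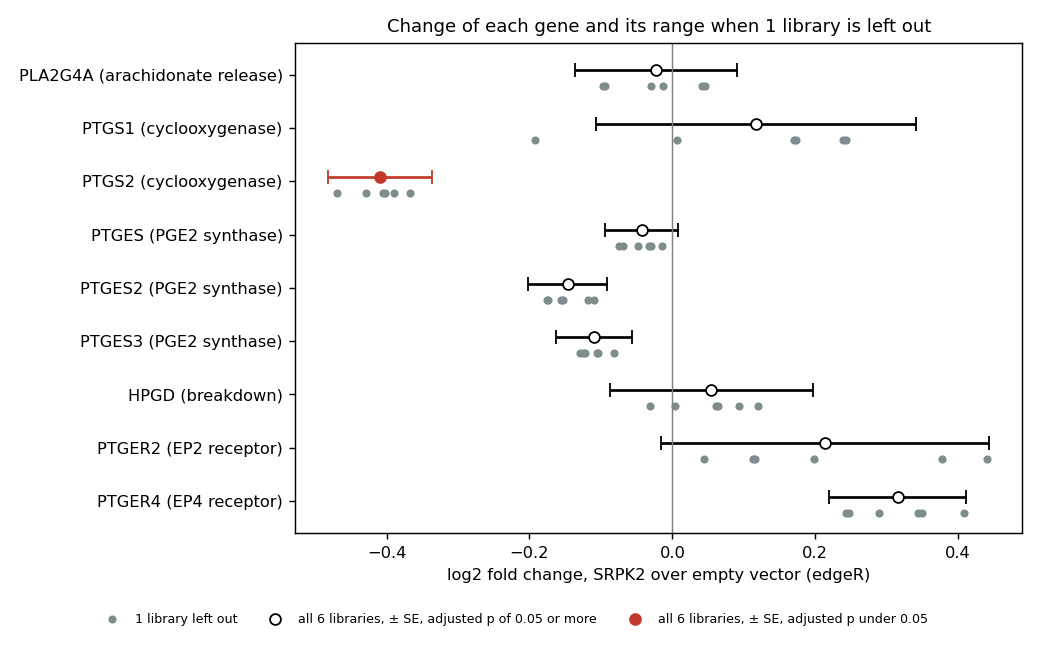
Log2 fold change of each gene, SRPK2 over empty vector, from edgeR. Large points are the values from all 6 libraries with 1 SE, filled red where the adjusted p was under 0.05, and grey points below them are the values with 1 library left out. PTGS2 at -0.41 is the gene that passed, PTGER4 at 0.32 lies on the other side of 0, and PTGS1, PLA2G4A and HPGD cross 0 when 1 library is left out.

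In all, 4 of the 9 genes had groups that did not overlap in CPM, 3 lower with SRPK2 (PTGS2, PTGES2 and PTGES3) and 1 higher (PTGER4). Non-overlapping groups were found for 20.1% of the tested genes, with 8.69% lower and 11.5% higher in SRPK2 libraries. The members' median log2 fold change was -0.02, beside 0.00 over all tested genes. Opposite signs for PTGS2 and PTGER4 put their FPKM ratio at 0.718, 0.715 and 0.646 in SRPK2 libraries, against 1.29, 0.920 and 1.248 in empty-vector libraries.

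By level per kilobase, the order of the 9 genes was nearly the same in both groups. In SRPK2 cells PTGES3 came first at 161 ± 2.84 FPKM, then PTGES at 51.0 ± 1.54, PTGES2 at 8.56 ± 0.19, PTGER4 at 3.14 ± 0.31, PTGS2 at 2.17 ± 0.08, PLA2G4A at 1.70 ± 0.18, PTGER2 at 0.55 ± 0.13, HPGD at 0.42 ± 0.05 and PTGS1 at 0.25 ± 0.08 FPKM (SD, n = 3). In empty-vector cells PTGES3 had 169 ± 4.09 FPKM, PTGES 51.3 ± 2.23, PTGES2 9.23 ± 0.37, PTGS2 2.81 ± 0.25, PTGER4 2.46 ± 0.27, PLA2G4A 1.70 ± 0.15, PTGER2 0.46 ± 0.12, HPGD 0.39 ± 0.03 and PTGS1 0.23 ± 0.03 FPKM (SD, n = 3). PTGER2 and HPGD overlapped in both groups. PTGS2 and PTGER4 overlapped in the empty-vector libraries, while in the SRPK2 libraries PTGER4 stood above PTGS2 without overlap. The other neighbours in the order did not overlap.

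These levels span most of the range of the transcriptome. Among 13260 tested protein-coding genes in empty-vector cells, PTGES3 lay above 98.7%, PTGES above 94.2% and PTGES2 above 69.0%. PTGS2 lay above 41.2%, PTGER4 above 38.1% and PLA2G4A above 30.6%. PTGER2 lay above 14.4%, HPGD above 12.8% and PTGS1 above 8.86%. The terminal synthases were thus among the more abundant mRNAs of the pathway, while the enzymes of arachidonate release and cyclooxygenation, and the enzyme of breakdown, were present at a few FPKM or less.

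**Figure D4:**
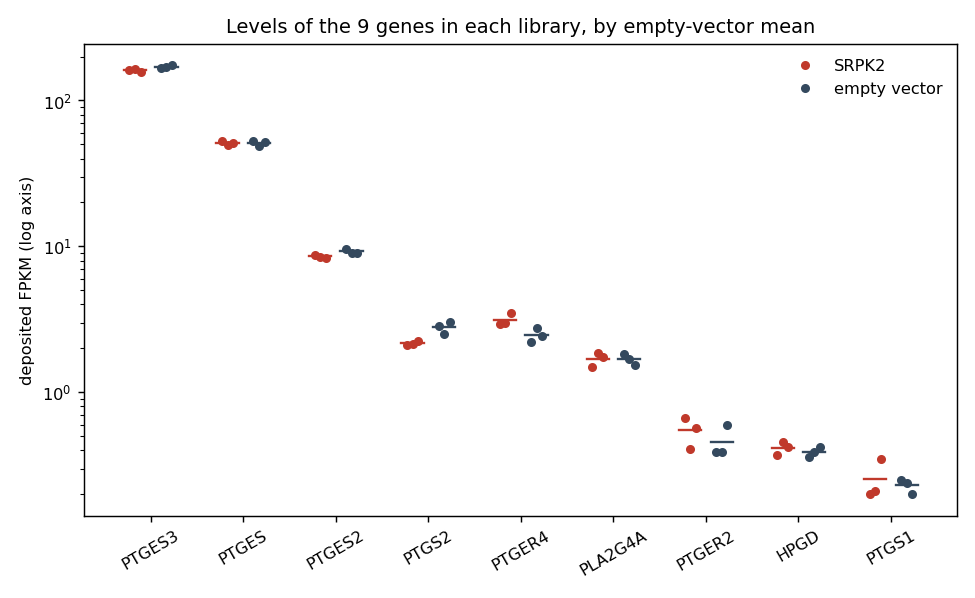
Deposited FPKM of the 9 genes in each library on a log axis, ordered by the empty-vector mean. Points are libraries, red for SRPK2 (left of each pair) and dark for the empty vector, and short lines are means (n = 3 each). PTGES3 is highest at 161 and 169 FPKM, PTGS1 lowest at 0.25 and 0.23 FPKM, and PTGS2 and PTGER4 change places.

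The rest of the pathway was described with 11 lists chosen by function, 218 symbols in all, of which 173 were tested. Of these, 2 rose and 0 fell in the edgeR test (1.16%, beside 0.454% of all tested genes). At an unadjusted p under 0.05, 19 were higher and 16 lower with SRPK2, or 20.2% beside 17.2% of all tested genes. Over the 16515 tested genes, 1496 were higher and 1337 lower at that level. The counts of single lists below stand beside these totals, and nothing is read from them. DESeq2 called 3 of the 173 higher and 4 lower, beside 0.624% higher and 0.303% lower of all tested genes. In limma on log2(FPKM + 1) the calls were 1 higher and 0 lower, beside 0.31% and 0.068% of the 13243 genes tested there. Genes with a mean below 0.5 FPKM were not tested in limma. The list sizes below are those tested in edgeR, so the limma counts can cover fewer genes. List medians lay between -0.12 and 0.08, and 9 of the 11 lists had 0 members past the edgeR threshold.

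SLCO3A1, an organic anion transporter that carries prostaglandins, rose in the list of transport and breakdown genes, 1 of 10 tested, beside 0.381% of all tested genes. It stood at 34.9 ± 2.41 CPM with SRPK2 and 28.0 ± 0.65 CPM with the empty vector (SD, n = 3 each), without overlap (0.32 on the log2 scale, SE 0.06, edgeR adjusted p = 0.0480). The exporter ABCC4 (0.08, SE 0.06), the importer SLCO2A1 (0.12, SE 0.18) and the reductases PTGR1 (-0.02, SE 0.06) and PTGR2 (-0.00, SE 0.06) did not pass. SLCO3A1 kept its call without SRPK2 replicate 2 and lost it without any of the other 5 libraries (0.26 to 0.34, edgeR adjusted p between 0.0586 and 0.210), and after correction for gene length (0.26, edgeR adjusted p = 0.0739). It also lost it with RLE scaling (0.31, edgeR adjusted p = 0.0550) and a filter at a mean of 5 CPM (0.32, edgeR adjusted p = 0.0588). In the deposited FPKM values it did not pass either (0.26 on the log2(FPKM + 1) scale, limma adjusted p = 0.114).

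TNFAIP3, a ubiquitin-editing enzyme that restrains NF-kB, rose among genes often induced with PTGS2, 1 of 25 tested, beside 0.381% of all tested genes. It stood at 25.8 ± 1.41 CPM with SRPK2 and 19.4 ± 0.87 CPM with the empty vector (SD, n = 3 each), a difference of 0.41 on the log2 scale (SE 0.06, edgeR adjusted p = 0.0139). It missed the threshold without empty-vector replicate 1 (0.41, edgeR adjusted p = 0.117). In the deposited FPKM values it passed narrowly (0.36 on the log2(FPKM + 1) scale, limma adjusted p = 0.0486). Without the filter on low FPKM it missed the threshold (limma adjusted p = 0.221). Its change had the same size as that of PTGS2 and the opposite sign, and a link between TNFAIP3 and PTGS2 was not tested. Other inflammatory members of the list did not pass, with log2 fold changes of 0.11 for IL6 (SE 0.06), -0.24 for IL1B (SE 0.08), -0.07 for CXCL8 (SE 0.10), 0.07 for CXCL1 (SE 0.11) and -0.15 for MMP1 (SE 0.07). ICAM1, an adhesion receptor, had 0.27 (SE 0.06, edgeR adjusted p = 0.0717). Over the 25 genes the median was 0.00, and the values ran from -0.24 to 0.79, with 13 positive and 12 negative. The gene with the highest value did not pass in edgeR.

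Upstream of PTGS2, 0 of 28 transcription factors of its promoter passed in edgeR (3 higher and 3 lower at an unadjusted p under 0.05, 1 lower in DESeq2, EGR1, 0 in limma), with a median of 0.04. The NF-kB subunits NFKB1, NFKB2 and RELA had log2 fold changes of 0.11 (SE 0.07), 0.14 (SE 0.05) and 0.02 (SE 0.05), CEBPB, which binds C/EBP letters, -0.12 (SE 0.06), and CREB1, which binds CREs, 0.11 (SE 0.05). The most abundant of the list, HIF1A and FOSL1, had 0.11 (SE 0.07) and 0.04 (SE 0.06). Of 22 receptors and kinases that induce PTGS2, 0 passed in edgeR, DESeq2 or limma, with a median of 0.05. Their values ran from -0.04 to 0.65, with 16 positive and 6 negative. At an unadjusted p under 0.05, 4 were higher and 0 lower, beside 1496 and 1337 of all 16515 tested genes. EGFR and IRAK1, the most abundant, had 0.06 (SE 0.06) and 0.01 (SE 0.05), and IL1R1, the interleukin-1 receptor, 0.14 (SE 0.06).

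Factors that bind PTGS2 mRNA or set its lifetime did not pass either, with 0 of 17 in edgeR, DESeq2 or limma (0 higher and 1 lower at an unadjusted p under 0.05) and a median of -0.02. ELAVL1 (HuR), which stabilises AU-rich mRNAs, had -0.04 (SE 0.05), ZFP36 (tristetraprolin), which destabilises them, 0.04 (SE 0.08), and CELF2, which binds PTGS2 mRNA, 0.08 (SE 0.08). YBX1 and PABPC1, the most abundant members, had -0.09 (SE 0.06) and -0.06 (SE 0.05). Gene totals carry no information on the lifetime or the splicing of the PTGS2 transcript.

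Among the other enzymes of fatty acid release 0 of 13 passed in edgeR, DESeq2 or limma (3 higher and 1 lower at an unadjusted p under 0.05; median -0.04). MGLL, a monoglyceride lipase that also yields arachidonate, had 0.13 (SE 0.05), and PLAAT3, a phospholipase, -0.05 (SE 0.07). Of the synthases of other prostanoids, 0 of 7 passed in the 3 tools (1 higher and 1 lower at an unadjusted p under 0.05; median -0.12), and AKR1B1, an aldose reductase with prostaglandin F synthase activity, had 411 ± 24.3 CPM with SRPK2 and 469 ± 13.5 CPM with the empty vector (log2 fold change -0.19, SE 0.06). CBR1, a carbonyl reductase that acts on prostaglandin E2, had -0.12 (SE 0.07). PTGDS and PTGIS, the synthases of prostaglandin D2 and prostacyclin, had too few reads to be tested.

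Other prostanoid receptors did not pass (0 of the 5 tested in edgeR in any of the 3 tools, median 0.06). At an unadjusted p under 0.05, 1 was higher and 0 lower. PTGFR (0.06 FPKM with SRPK2 and 0.08 FPKM with the empty vector) and PTGFRN (0.12 FPKM in both groups) were too low to be tested in limma. The nuclear receptors PPARG and PPARD, which bind prostaglandin derivatives, had 0.06 (SE 0.05) and 0.16 (SE 0.07). In the lipoxygenase branch, which competes for arachidonic acid, 0 of 10 passed in the 3 tools (2 higher and 3 lower at an unadjusted p under 0.05; median -0.10). MGST1, a microsomal glutathione transferase, had -0.21 (SE 0.07), and LTA4H, the leukotriene A4 hydrolase, -0.10 (SE 0.05). ALOX5, the 5-lipoxygenase, stood at 1.47 CPM with SRPK2 and 1.41 CPM with the empty vector.

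Downstream of EP2 and EP4, 0 of 26 genes of cyclic AMP signalling and response passed in edgeR, DESeq2 or limma (1 higher and 1 lower at an unadjusted p under 0.05; median 0.02). GNAS, the stimulatory G protein, had 0.03 (SE 0.05), and PRKAR1A, a regulatory subunit of protein kinase A, 0.02 (SE 0.05). Of 15 genes reported with PTGS2 in lung and brain metastasis of MDA-MB-231 derivatives, 0 passed in edgeR and limma, while DESeq2 called 3 lower, ID3, KRT81 and ANGPTL4, beside 0.303% of all tested genes called lower (1 higher and 4 lower at an unadjusted p under 0.05; median 0.02). ID1, an inhibitor of differentiation, had -0.17 (SE 0.07), and KRT81, a hair keratin, -0.33 (SE 0.08), with a DESeq2 adjusted p of 0.0145. In DESeq2, ID3 had -0.36 (DESeq2 adjusted p = 0.00751) and ANGPTL4 -0.28 (DESeq2 adjusted p = 0.0133). Both narrowly missed the threshold in edgeR (edgeR adjusted p = 0.0567 and 0.0589). EREG and HBEGF, ligands of EGFR, had 0.05 (SE 0.06) and 0.04 (SE 0.05).

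**Figure D5:**
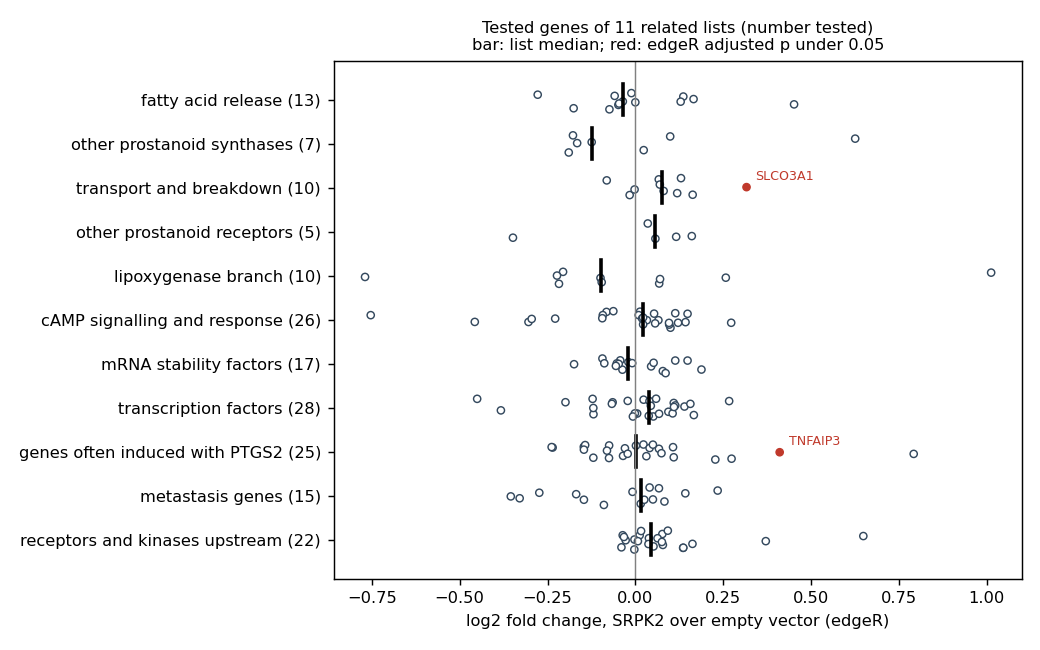
Log2 fold change, SRPK2 over empty vector, of every tested gene in 11 lists around the pathway. Each point is a gene, black bars are list medians, numbers give the genes tested, and red points passed an edgeR adjusted p of 0.05. SLCO3A1 (0.32) and TNFAIP3 (0.41) are the 2 that passed, and every list median lies between -0.12 and 0.08.

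The 5 genes whose log2 CPM followed PTGS2 most closely over the 6 libraries, among 12650 genes averaging at least 1 in log2 CPM, were the noncoding RNA ENSG00000259623.1 (Pearson r 0.998), the ribosome biogenesis factor NOP14 (0.982), the adhesion protein AMIGO2 (0.979), TPRA1 (0.979) and the transcription factor DEAF1 (0.977). All 5 had negative log2 fold changes, between -0.23 for TPRA1 (SE 0.05) and -0.10 for NOP14 (SE 0.05), and none of the 5 passed the edgeR threshold. The shared sign follows from the choice, because PTGS2 itself was lower in every SRPK2 library. With 6 libraries from 2 groups and this many genes compared, high values of r are common, and they say nothing of shared function. Among the members, PTGES2 had r = 0.755, PTGES3 0.755, PTGES 0.541, PLA2G4A 0.061, PTGS1 -0.125, HPGD -0.197, PTGER2 -0.243 and PTGER4 -0.870 with PTGS2 over the same 6 libraries.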

How the data were processed

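RNA of 6 MDA-MB-231 libraries, 3 per group by title, was sequenced in paired-end mode. The submitters' processing notes name bcl2fastq, FastQC, HISAT2 and GRCh38, without versions. Which program counted the reads, whether by strand and on which annotation release, is not given in the sources used here. The authors deposited whole-number counts per gene and FPKM values rounded to 2 decimals. The deposited counts summed to 31140537 to 36908878 reads in genes per library. Replicates differed by more than counting error (chi-square per degree of freedom 4.74 to 16.7).

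The main test on counts was the quasi-likelihood test of edgeR 4.0.16 (R 4.3.3, filterByExpr, TMM scaling, two-sided, group as the only term, Benjamini-Hochberg adjustment over 16515 genes, threshold 0.05). Each SE is the size of the log2 fold change divided by √F. P-values set the difference between the groups against the spread between these replicates, called biological by the submitters. Alternatives used DESeq2 1.42.0, limma 3.58.1 on log2 FPKM, other scalings and filters, a replicate term, a length correction and leaving out each library. Fits were tested on simulated counts. Coordinates come from GENCODE 29 and promoters from RefSeq.

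Members and lists were chosen with earlier results of these data known. Named genes were the members and SRPK2, up to 4 called genes per list or else the 2 most abundant, neighbours within 10 kb, and the 5 genes most like PTGS2. Other list genes were named for their roles after their values were seen.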

Additional observations from a re-analysis of the deposited data

How the results depend on the processing

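Across all genes 75 passed, 63 higher and 12 lower with SRPK2. The count was 153 with DESeq2 (103 higher, 50 lower), 997 with no filter on low counts (390 higher, 607 lower), 102 with the gene length correction (75 higher, 27 lower), 18 with limma on log2(FPKM + 1) without a filter, and between 27 and 1403 when 1 library was left out, the highest without SRPK2 replicate 2. The cause was not tested. Among the 9 members no call changed direction. PTGS2 passed in 9 of 17 alternatives, with log2 fold changes between -0.47 and -0.26. PTGER4 also passed with no filter on low counts (0.31, edgeR adjusted p = 0.0175). A fit with the replicate number as a block called 3899 genes, and 3360 with the gene length correction. In the replicate block fit PTGER4 (0.32), PTGES2 (-0.15) and PTGES3 (-0.11) passed as well, with edgeR adjusted p between 0.00180 and 0.00283. The labels do not say that the numbers pair the libraries: same-numbered libraries had correlations of deviations of 0.0839, 0.230 and 0.171. Every library correlated best with its own number, which is a hint from the data and not the design. Of 357 alternative values for 21 other named genes, 13 lost the call, most of them values of SLCO3A1, while 29 gained it and 0 reversed. PTGS1, PTGER2 and HPGD had SEs of 0.14 to 0.23 on the log2 scale, at 35 to 98 reads per library. The spread of HPGD was near counting error or below it in both groups. PTGS1 with SRPK2 (coefficient of variation 31.7%, against 13.3% from counting) and PTGER2 with SRPK2 (23.9%, against 14.003%) and with the empty vector (24.5%, against 15.1%) varied more than counting gives.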

Other observations

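The genes with the lowest and the highest log2 fold change are given here for 3 of the lists, picked out for these values. In the lipoxygenase branch they were ALOX5AP, which presents arachidonic acid to 5-lipoxygenase, and LTB4R2, a leukotriene B4 receptor. ALOX5AP stood at 0.847 ± 0.085 CPM with SRPK2 and 1.45 ± 0.13 CPM with the empty vector (-0.77, SE 0.19), and LTB4R2 at 0.885 ± 0.31 CPM with SRPK2 and 0.441 ± 0.021 CPM with the empty vector (1.01, SE 0.30; SD, n = 3 each). Both rested on at most 52 reads in a library. In the cyclic AMP list they were NR4A1, a nuclear receptor (-0.75, SE 0.23), and PDE4B, a phosphodiesterase (0.27, SE 0.15), while 17 of the 26 genes were positive. Among the transcription factors they were EGR1, an immediate early factor (-0.45, SE 0.11), and NFAT5 (0.27, SE 0.07), while 17 of the 28 were positive. The groups did not overlap for any of the 6 genes, beside 20.1% of all tested genes. Genes picked as extremes tend to have separated groups, so nothing is read from this. Their edgeR adjusted p ranged from 0.113 to 0.371. DESeq2 called EGR1 lower (adjusted p = 0.0349) and none of the other 5. Other lists had extremes not described above as well. In fatty acid release these were FAAH (-0.28, SE 0.31), with overlapping groups, and DAGLA (0.45, SE 0.12), without overlap.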
